A study of Rattus norvegicus with 18 samples.

Results

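The effect of PE, kept on the cells for 48 h without any electric pulse, was examined across all genes of the rat line H9C2. The comparison rests on 3 libraries of treated cells (P, 50 µmol/L PE for 48 h) and 3 of untreated cells (NC), which are 6 of the 18 libraries in the series. The compound is given in the labels only as PE, with no full name. Every group of the series came from the same line, and no genetic change is labelled in any of them. The other groups received 10 or 50 electric pulses of 100 µs at 1500 V/cm, with or without PE, and the series asks how such pulses harm heart muscle cells and their mitochondria. P_ES10 (PE for 48 h and 10 pulses) and ES10 (10 pulses alone), 3 libraries each, are used below as a second comparison with and without PE that shares no library with the first.

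H9C2 is a line of myoblasts grown from embryonic rat heart, widely used as a stand-in for heart muscle although it also expresses skeletal muscle genes. The labels call the cells myocardium. Of 13 cardiomyocyte markers, 4 reached a mean of 1 FPKM (reads scaled for gene length and library, the deposited unit). These were Tnnc1, Tnnt2, Tnni3 and Pln. The summed level of the markers was 37.7 to 39.4 FPKM in P libraries and 45.1 to 51.7 FPKM in NC libraries, most of it from the troponin genes Tnnc1 and Tnnt2. Outside these markers, Casq2 of the sarcomere list averaged 147 FPKM in P and 165 FPKM in NC. Gata4 of the list of heart muscle growth averaged 2.0 and 1.9 FPKM. Myl2, the ventricular myosin light chain, had 0 reads in all 6 libraries, and Myh6, Myh7, Actc1 and Ryr2 had at most 5 reads in any of them. Of 10 skeletal muscle markers 2 reached a mean of 1 FPKM, Myod1 and Des. All 10 summed to 31.2 to 36.0 FPKM in P libraries and 43.7 to 44.9 FPKM in NC libraries. Most of this was the regulator Myod1, at 25.9, 21.8 and 22.6 FPKM in P libraries and 31.9, 32.2 and 31.9 FPKM in NC libraries. Its relatives Myf5 and Myf6 had 1 and 2 reads over the 6 libraries. The 9 smooth muscle markers in the file summed to 2460 to 2580 FPKM in P libraries and 2530 to 2750 FPKM in NC libraries. Of 5 endothelial markers 0 reached 1 FPKM, summing to 0.651 to 0.903 FPKM in P libraries and 0.677 to 0.85 FPKM in NC libraries, with Cdh5 at 0 reads. Of 6 macrophage markers 2 did, Cd14 and Cd68, and the sum was 8.05 to 9.75 FPKM in P libraries and 7.11 to 8.26 FPKM in NC libraries, nearly all of it Cd14, with Ptprc and Adgre1 at 0 reads. The labelled cell type is thus matched by few of its markers, and the cells are called H9C2 here.

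The 6 libraries held 14004929 to 16049853 reads on genes. The labels number the replicates and say no more of their origin, so each p-value rests on a spread between libraries that could be purely technical. In these bulk libraries fewer cells expressing a gene and less of its RNA per cell cannot be told apart. Log2 levels correlated at 0.988 to 0.989 between P libraries, 0.988 between NC libraries and 0.978 to 0.981 across the groups. Changes are given as log2 fold change of FPKM + 1, P over NC, ± standard error. Changes of low genes come out too small on this scale, and changes are relative to the median gene, which differed by 0.01. A gene was called when limma gave an adjusted p under 0.05.

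After PE, 2874 of the 11019 genes tested were called (26.1%), 1494 higher (13.6%) and 1380 lower (12.5%). The differences were small. The median called gene was 1.23-fold higher or 1.22-fold lower, and at least 2-fold differences were seen for 22 higher genes (0.2%) and 37 lower genes (0.336%). In 4926 genes (44.7%) the 3 P libraries did not overlap with the 3 NC libraries. With scaling to total reads the median gene stood at 0.12, and the calls were then 2958 higher and 651 lower. Thus 82.0% were higher, against 52.0% with the deposited scaling. Total reads include those on mitochondrial genes, whose share differed between the groups (below). With scaling to nuclear reads the median gene stood at 0.0, with 1453 higher and 1449 lower calls (50.1% higher). Medians and counts of gene lists below are on the deposited scale unless another is named. The counts stand beside 13.6% of all genes called higher and 12.5% called lower. With scaling to total reads those of complex I, complexes II to V, matrix genes outside the collagens, hypertrophy markers and autophagy genes, given below as slightly negative, became slightly positive. The number of calls was 1867 without NC replicate 1, 1913 without NC replicate 2 and 1821 without P replicate 2.

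**Figure D1:**
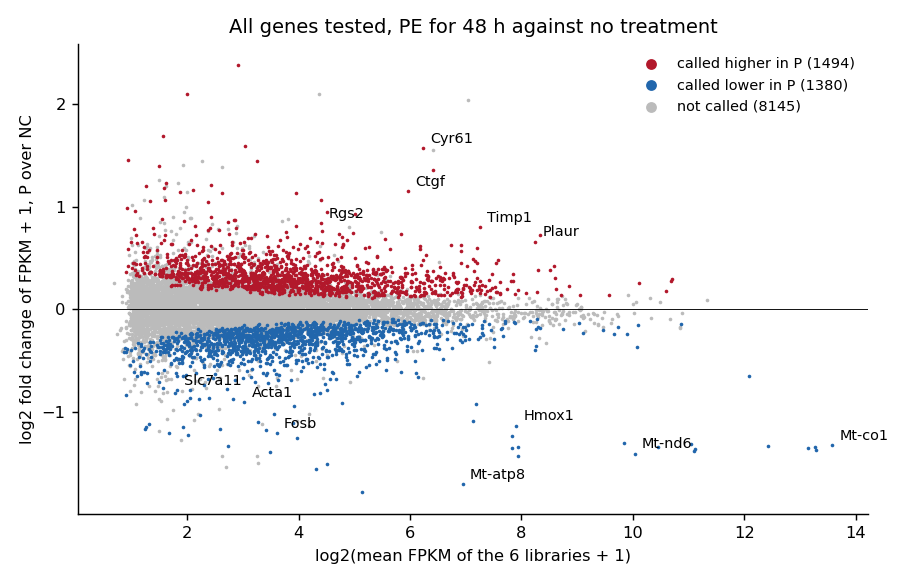
Log2 fold change of FPKM + 1 (P over NC, vertical axis) against log2 of the mean FPKM of the 6 libraries + 1 for the 11019 genes tested. Red and blue points are the 1494 higher and 1380 lower genes called by limma, grey points the others. Most called genes lie close to the zero line, and mitochondrial transcripts such as Mt-atp8, Mt-nd6 and Mt-co1 stand out at the lower right.

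Transcripts of the mitochondrial genome fell together. The genome of mitochondria encodes 13 mRNAs for core subunits of the respiratory chain and the ATP synthase, transcribed inside the organelle by the polymerase Polrmt with the factor Tfam. The other subunits are encoded in the nucleus. All 13 mitochondrially encoded mRNAs were lower in P libraries, with a median of -1.35, against a median of 0.01 over all genes, where 12.5% were called lower. Mt-co1, which encodes the catalytic subunit of cytochrome c oxidase, had 6791, 6927 and 7076 FPKM in P libraries, against 19250, 17840 and 15370 FPKM in NC libraries. The groups lay far apart, and the fold change was -1.33 ± 0.09 (limma adjusted p = 0.000412). Mt-nd5, a complex I subunit, had 516, 535 and 519 FPKM in P libraries and 1371, 1352 and 1186 FPKM in NC libraries. It changed by -1.31 ± 0.06 (adjusted p = 0.000286). Mt-atp8, a short ATP synthase gene that overlaps Mt-atp6, had the lowest fold change of the 13, at -1.71 ± 0.14. Mt-nd6, encoded on the opposite strand from the others, changed by -1.41 ± 0.09, and Mt-cytb of complex III by -1.34 ± 0.08. Both mitochondrial rRNA genes and 9 of 14 tested tRNA genes were also called lower. For the tRNA genes these values are reads over the loci in poly(A) libraries, and whether mature tRNAs changed was not tested.

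The share of all reads on the mitochondrial genes was 5.42, 5.41 and 5.60% in P libraries, against 14.0, 13.2 and 11.6% in NC libraries. It averaged 5.48 ± 0.104% in P and 12.9 ± 1.21% in NC (SD, n = 3 each), 0.424 times as much, with an exact two-sided permutation p of 0.1, the smallest that 3 against 3 can give. Poly(A) capture, which these libraries used, reads mitochondrial transcripts through their short tails, and the part of tail length in these levels was not tested. After quantile normalization 9 of the 13 mRNAs were called lower, with a median of -0.97. Mt-co1, the most abundant of them, then had no difference, since that method sets the top gene equal in every library.

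On the deposited scale few nuclear genes for the same complexes were called. Of 31 nuclear complex I genes, 2 were called higher and 2 lower, with a median of -0.01, and of 40 genes for complexes II to V, 2 were higher and 4 lower (median -0.03). Cyc1, the cytochrome c1 of complex III, rose, at 74.2, 67.2 and 68.1 FPKM in P libraries against 59.2, 57.1 and 57.3 FPKM in NC libraries (0.27 ± 0.05, adjusted p = 0.0081). The 70 mitochondrial ribosomal protein genes had 4 higher and 2 lower (median 0.06). With scaling to total reads none of these 3 lists had a lower call, and the higher calls were 6 for complex I, 8 for complexes II to V and 18 for the ribosomal proteins. Of 22 factors for mitochondrial transcription and RNA handling, 2 were called in each direction, and scaling to total reads gave 5 higher and 0 lower. Tfam had 12.3, 12.9 and 13.7 FPKM in P libraries and 13.7, 12.8 and 14.3 FPKM in NC libraries, overlapping groups with a difference of -0.07 ± 0.06 (limma adjusted p = 0.445) and of 0.04 with scaling to total reads. Polrmt had 5.88, 5.68 and 6.06 FPKM in P libraries and 3.87, 4.47 and 5.38 FPKM in NC libraries (0.31 ± 0.10, adjusted p = 0.0591). All 3 P libraries were above the NC libraries, and the difference passed the threshold without NC replicate 3 (0.41, adjusted p = 0.02), on the scale of total reads (0.46, adjusted p = 0.0268), with voom weights on recovered reads (adjusted p = 0.0105) and with a filter at 5 FPKM (adjusted p = 0.0455). Fastk, a mitochondrial RNA-binding protein that stabilises the ND6 transcript, rose by 0.24 ± 0.05.

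**Figure D2:**
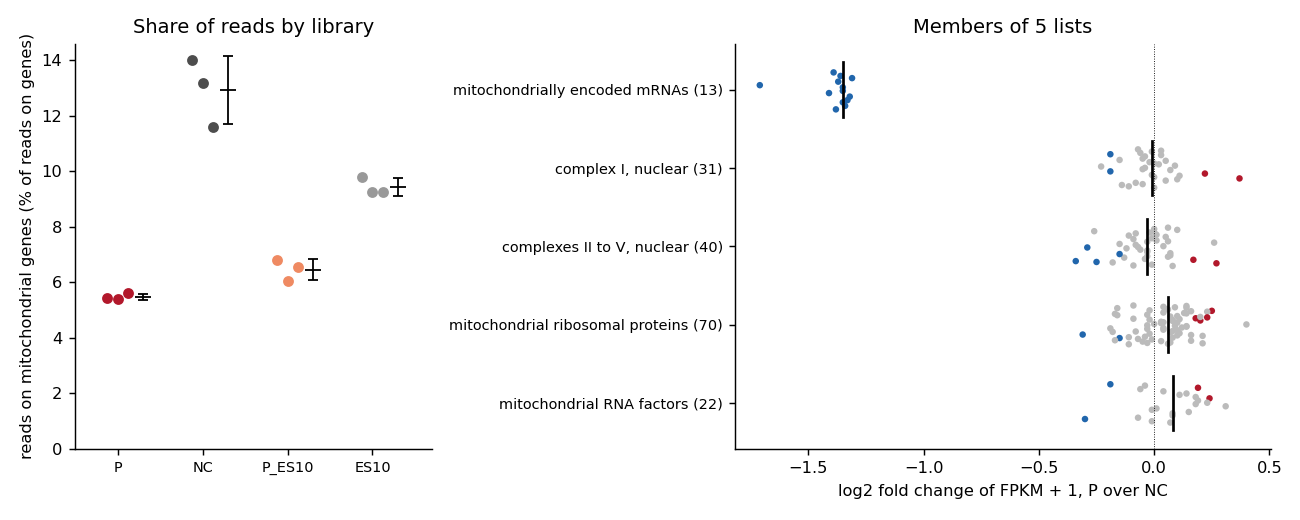
Left, percent of reads on mitochondrial genes in each library of P, NC, P_ES10 and ES10 (points), with the mean ± SD of 3 libraries in black. Right, log2 fold change of FPKM + 1 (P over NC) of the tested members of 5 lists, with red for called higher, blue for called lower, grey for not called and a black bar at the median. All 13 mitochondrially encoded mRNAs lie below -1.3, whereas the nuclear genes of the same complexes lie around 0.

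The genes with the smallest adjusted p of all were a pair of matricellular genes. YAP is a coactivator that enters the nucleus when cells are stretched or spread, binds DNA through TEAD factors and turns on Cyr61 and Ctgf. SRF, a second factor that reads the state of actin, drives actin and muscle genes through a sequence called the CArG box. Cyr61 (ENSRNOG00000014350, chromosome 2, 251529354 to 251532312, build Rnor 6.0) had 111.8, 113.4 and 110.3 FPKM in P libraries, against 36.9, 35.9 and 37.9 FPKM in NC libraries. The mean in P was 3.03 times that in NC and the groups were far apart, a change of 1.57 ± 0.03 (adjusted p = 6.06e-06). Ctgf (ENSRNOG00000015036, chromosome 1, 21851660 to 21854773) had 82.4, 84.7 and 87.2 FPKM in P libraries and 37.8, 37.3 and 38.3 FPKM in NC libraries (1.15 ± 0.03, adjusted p = 3.13e-05). Amotl2, an angiomotin that feeds back on YAP, had 23.2, 24.8 and 23.1 FPKM in P libraries and 14.3, 14.6 and 14.9 FPKM in NC libraries (0.66 ± 0.04). Its relative Amotl1 went the other way, at 14.8, 14.5 and 14.5 FPKM in P libraries against 20.8, 20.7 and 22.5 FPKM in NC libraries (-0.52 ± 0.04). Ajuba, a scaffold that holds back the kinases upstream of YAP, rose by 0.37 ± 0.05.

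The stretches of 250 bases before the start of Cyr61, Ctgf and Amotl2 are shown because these 3 are the called YAP and SRF targets of largest change that hold the core of the TEAD binding sequence. They are RefSeq sequences of build GRCr8, 5′ to 3′ toward the start. Capitals mark GGAATG on either strand, so that CATTCC is a match on the other strand.
Cyr61, chr2:237225690-237225939, minus strand: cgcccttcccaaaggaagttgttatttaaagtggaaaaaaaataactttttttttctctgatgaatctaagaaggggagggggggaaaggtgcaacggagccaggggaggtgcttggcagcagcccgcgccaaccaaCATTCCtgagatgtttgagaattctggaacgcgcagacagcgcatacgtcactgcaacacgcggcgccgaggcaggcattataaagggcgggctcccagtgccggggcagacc
Ctgf, chr1:22624615-22624864, minus strand: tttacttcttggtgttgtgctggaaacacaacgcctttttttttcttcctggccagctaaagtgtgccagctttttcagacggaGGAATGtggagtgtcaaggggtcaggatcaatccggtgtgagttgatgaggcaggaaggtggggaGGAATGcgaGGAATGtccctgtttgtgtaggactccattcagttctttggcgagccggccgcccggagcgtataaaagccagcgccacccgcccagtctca
Amotl2, chr8:112182376-112182625, plus strand: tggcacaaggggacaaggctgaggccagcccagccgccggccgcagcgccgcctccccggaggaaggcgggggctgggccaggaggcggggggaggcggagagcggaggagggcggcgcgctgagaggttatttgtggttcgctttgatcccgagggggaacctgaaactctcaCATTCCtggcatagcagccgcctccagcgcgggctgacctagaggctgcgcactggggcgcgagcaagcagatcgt
Counted from the start, the match begins at -113 in Cyr61 and at -76 in Amotl2, and Ctgf has 3 matches, at -166, -101 and -92. GGAATG was found in 13.9% of 27457 RefSeq promoters (250 bases before to 50 after the start) and in 7 of the 13 tested YAP and SRF targets that matched one. A match describes the letters of the window and is not evidence of binding.

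Over the whole list of 20 tested YAP and SRF targets, 9 were called higher and 5 lower, and the median was 0.01, so the list did not move in 1 direction. The 5 lower genes included Myl9, a light chain of smooth muscle myosin, with 274, 255 and 277 FPKM in P libraries and 365, 322 and 352 FPKM in NC libraries (-0.36 ± 0.06). Actb, the cytoskeletal actin, had 1892, 1777 and 1728 FPKM in P libraries and 1516, 1484 and 1460 FPKM in NC libraries (0.27 ± 0.04). Among contractile genes, Cnn1, the smooth muscle calponin, fell by 0.51 on the log2 scale, to 56.9, 52.0 and 56.5 FPKM in P libraries against 82.9, 78.8 and 75.4 FPKM in NC libraries. Of 13 tested smooth muscle entries, 2 were called higher and 5 lower, with a median of -0.17, and 3 in each direction with scaling to total reads. Both higher calls were entries of the same gene, Smtn. The lower calls included Mylk, which passed the filter at 1 FPKM through the NC libraries alone. Of 13 sarcomere genes, 0 were called higher and 6 lower, with a median of -0.16. Acta1, the skeletal actin, had 4.90, 4.22 and 4.83 FPKM in P libraries and 10.4, 8.87 and 9.54 FPKM in NC libraries (-0.91 ± 0.08, adjusted p = 0.000915). The troponin genes Tnnt2 and Tnnc2 changed by -0.62 ± 0.06 and -0.39 ± 0.06. Of 11 tested myogenic regulators, 1 was called higher and 5 lower, with a median of -0.09. Id2, an inhibitor of muscle differentiation factors, fell by 0.79 on the log2 scale and Myod1 by 0.44. The higher call was the cadherin gene Cdh15, with a mean of 109 FPKM in P and 85.4 FPKM in NC (0.35).

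The genes that answer growth factors and stress within minutes were mostly lower after PE. Immediate early genes encode mostly transcription factors such as Fos, Fosb and Egr1, whose mRNAs are short-lived and are switched on through MAP kinases, and Dusp genes encode the phosphatases that switch those kinases off. Of 23 tested immediate early genes 1 was called higher and 18 lower, with a median of -0.38. Fos (chromosome 6, 109300433 to 109303299) had 9.49, 7.74 and 7.92 FPKM in P libraries, against 22.0, 19.3 and 16.6 FPKM in NC libraries. No P library reached the lowest NC library, and the change was -1.11 ± 0.11 (limma adjusted p = 0.00171). Fosb, its close relative, had 7.06, 6.71 and 5.37 FPKM in P libraries and 16.9, 16.6 and 14.5 FPKM in NC libraries (-1.21 ± 0.10). Klf4, a zinc finger factor, had 5.19, 6.56 and 5.02 FPKM in P libraries and 14.6, 13.6 and 13.5 FPKM in NC libraries (-1.18 ± 0.09). Egr1 had 8.11, 6.38 and 5.89 FPKM in P libraries and 15.4, 15.3 and 13.6 FPKM in NC libraries (-1.02 ± 0.11).

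The changes of the other Fos relatives were smaller, at -0.39 ± 0.03 for Fosl1 and -0.58 ± 0.06 for Fosl2, and Maff changed by -0.83 ± 0.06. Myc, a driver of growth genes, had 16.3, 13.6 and 13.8 FPKM in P libraries and 19.3, 20.0 and 19.9 FPKM in NC libraries (-0.42 ± 0.07). Of 19 tested MAP kinase phosphatases and feedback genes, 1 was called higher and 7 lower (median -0.20). Dusp1, the phosphatase most tied to the early response, had 54.2, 50.4 and 54.7 FPKM in P libraries, against 83.1, 80.5 and 82.3 FPKM in NC libraries. Its change was -0.62 ± 0.04 (adjusted p = 0.000426), beside -0.54 ± 0.06 for Dusp5 and -0.37 ± 0.05 for Dusp10. When all 18 libraries of the series were fitted together, the calls of Myc, Fosl2 and Dusp10 were lost. So were those of 18 others of the genes checked for this, among them Srxn1, Ddit3, Nars, Sqle, Npc1, Aurkb, Cdc20, Bmf, Arrb2, Nppb and Rcan1. That fit also took its spread from the libraries given 50 pulses without PE, where 91.4 to 92.9% of reads were mitochondrial. The part of those libraries in the lost calls was not tested.

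**Figure D3:**
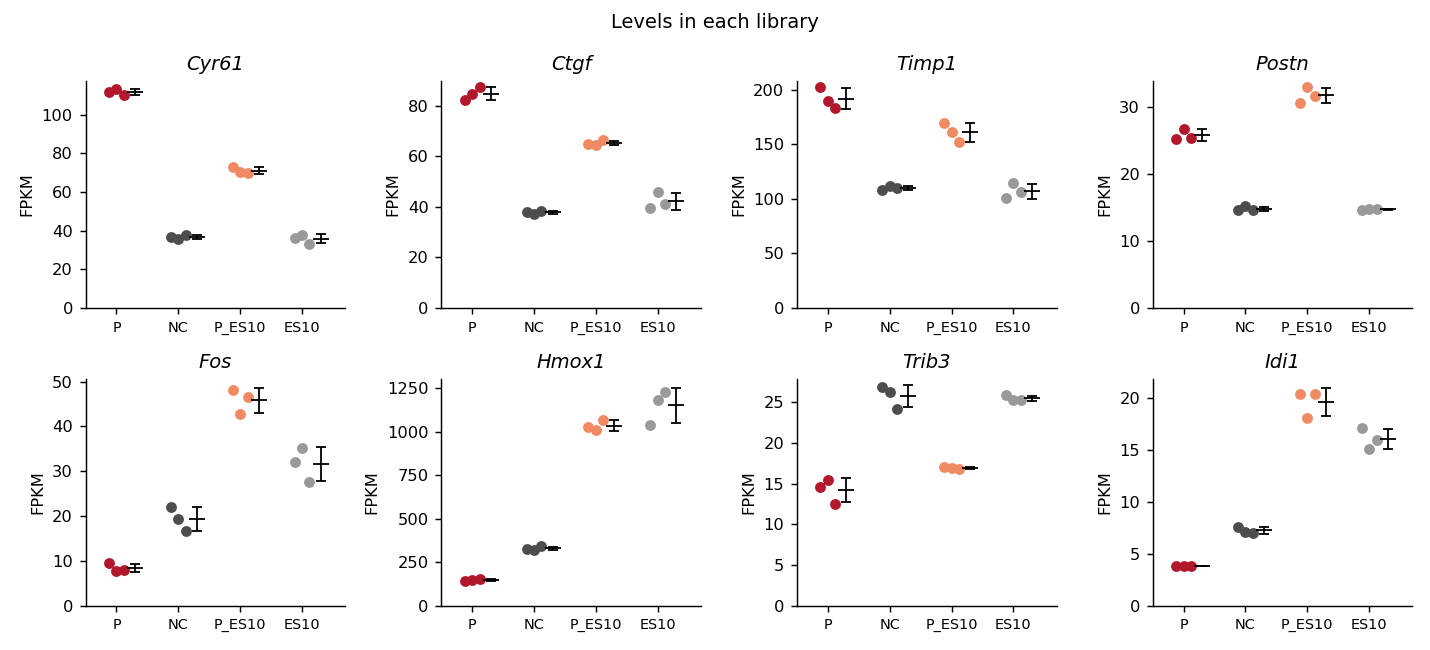
FPKM in each library (points) with the mean ± SD of 3 libraries in black, for 8 genes in P, NC, P_ES10 and ES10. Cyr61, Ctgf, Timp1 and Postn are higher with PE in both pairs of groups, Trib3 is lower with PE in both, Hmox1 is lower in P than in NC, and Fos and Idi1 are lower in P than in NC but higher in P_ES10 than in ES10.

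Lower levels were also called for many genes of the antioxidant, amino acid and sterol programmes. Hmox1, the heme-degrading enzyme induced by oxidants through the factor NRF2, had 144, 148 and 154 FPKM in P libraries, against 326, 321 and 341 FPKM in NC libraries (chromosome 19, 14508616 to 14515456). Every P library was far below every NC library, a change of -1.14 ± 0.04 (adjusted p = 5.19e-05). Of 17 tested NRF2 targets, 1 was called higher and 8 lower, with a median of -0.18. Srxn1, which repairs oxidised peroxiredoxins, had 28.5, 27.7 and 29.4 FPKM in P libraries and 41.5, 43.9 and 43.7 FPKM in NC libraries (-0.57 ± 0.04). Slc7a11, the cystine importer, had 1.58, 1.69 and 1.48 FPKM in P libraries and 3.62, 3.30 and 3.51 FPKM in NC libraries (-0.79 ± 0.07). Txnrd1, a thioredoxin reductase, and the ferritin light chain Ftl1 changed by -0.28 ± 0.04 and -0.37 ± 0.06.

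ATF4 is the factor of the integrated stress response. It is made when the initiation factor eIF2 is phosphorylated, and it turns on amino acid synthesis, amino acid transporters and tRNA synthetases. Of 25 tested ATF4 targets 0 were called higher and 22 lower, with a median of -0.31, and with scaling to total reads 16 were called lower. Trib3, a pseudokinase induced by ATF4, had 14.6, 15.5 and 12.5 FPKM in P libraries and 26.9, 26.3 and 24.2 FPKM in NC libraries (-0.82 ± 0.08, adjusted p = 0.00144). Chac1, which degrades glutathione, had 9.89, 10.3 and 10.2 FPKM in P libraries and 15.6, 16.9 and 18.3 FPKM in NC libraries (-0.69 ± 0.06). Atf4 itself, which the rule for named genes did not pick and which was chosen after its values were seen, had 267, 246 and 263 FPKM in P libraries and 349, 337 and 342 FPKM in NC libraries (-0.40 ± 0.04). Ddit3, a factor of stress-induced death, Sesn2, an inhibitor of mTORC1, and the serine synthesis enzyme Psat1 changed by -0.47 ± 0.03, -0.50 ± 0.05 and -0.38 ± 0.04. Slc7a1, a carrier of cationic amino acids, had 23.8, 22.9 and 23.2 FPKM in P libraries and 32.7, 32.2 and 33.3 FPKM in NC libraries (-0.47 ± 0.03). Of 21 aminoacyl-tRNA synthetase genes 1 was called higher and 11 lower, with a median of -0.15, but 5 higher and 5 lower (median -0.04) with scaling to total reads. The lower ones included Yars at -0.30 ± 0.03 and Nars at -0.23 ± 0.03. The lists overlap, since Aars, Gars, Nars, Sars and Wars are also counted as ATF4 targets. The ATF4 list further holds Atf4 itself and Slc7a11, which is also in the NRF2 list.

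Trib3 and Chac1 are the called ATF4 targets of largest change whose promoter held TGATGNAA, the composite sequence bound by ATF4 with C/EBP factors, and their 250 bases before the start (RefSeq, GRCr8) follow with the match in capitals. Both matches lie on the other strand and so end in ATCA.
Trib3, chr3:161275534-161275783, minus strand: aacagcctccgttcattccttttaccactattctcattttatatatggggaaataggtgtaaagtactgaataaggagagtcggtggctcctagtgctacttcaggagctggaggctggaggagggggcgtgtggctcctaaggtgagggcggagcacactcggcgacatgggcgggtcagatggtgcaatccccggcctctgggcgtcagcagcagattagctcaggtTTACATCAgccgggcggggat
Chac1, chr3:126795881-126796130, plus strand: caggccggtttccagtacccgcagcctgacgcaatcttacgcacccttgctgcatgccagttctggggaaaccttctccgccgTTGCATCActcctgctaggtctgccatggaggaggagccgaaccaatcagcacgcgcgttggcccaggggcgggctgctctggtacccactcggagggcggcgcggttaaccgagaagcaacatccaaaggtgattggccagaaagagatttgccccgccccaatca
The match begins at -21 in Trib3 and at -167 in Chac1. TGATGNAA was found in 3.82% of all promoters and in 5 of 24 tested ATF4 targets. TCACNCCAC, a sterol regulatory sequence, was found in 1.13% of all promoters and in 0 of the 17 tested cholesterol genes that matched one.

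The unfolded protein response list was split, with 9 higher and 3 lower of 21 and a median of 0.00. Its lower members included Dnajb9, a chaperone of the endoplasmic reticulum, with 15.0, 16.8 and 16.4 FPKM in P libraries and 24.0, 24.7 and 23.0 FPKM in NC libraries (-0.54 ± 0.05), and Herpud1 of the degradation machinery (-0.48 ± 0.05). Pdia6, a protein disulfide isomerase, was among the higher ones, with 205, 196 and 193 FPKM in P libraries and 175, 164 and 172 FPKM in NC libraries (0.22 ± 0.04).

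Genes of cholesterol synthesis, which the factor SREBP2 raises when sterols run low, had 1 member called higher and 13 lower of 24, with a median of -0.20. Idi1, the isopentenyl diphosphate isomerase, had 3.84, 3.79 and 3.84 FPKM in P libraries, against 7.63, 7.09 and 7.05 FPKM in NC libraries (-0.78 ± 0.05, adjusted p = 0.000504). Insig1, the sterol sensor that retains SREBP2, had 18.2, 17.2 and 16.1 FPKM in P libraries and 27.9, 29.0 and 27.3 FPKM in NC libraries (-0.68 ± 0.05). The groups were well apart in both genes. The enzymes Acat2, Cyp51, Sqle and Hmgcs1 changed by -0.66 ± 0.06, -0.54 ± 0.04, -0.44 ± 0.04 and -0.39 ± 0.05. Npc1, which carries cholesterol out of lysosomes, changed by -0.55 ± 0.05. Of the 30 tested autophagy and lysosome genes 4 were called higher and 11 lower, with a median of -0.06, and with scaling to total reads the counts turned to 11 higher and 4 lower, with a median of 0.05. Gabarapl1, an autophagosome protein, had 24.8, 24.3 and 25.1 FPKM in P libraries and 40.4, 37.6 and 39.8 FPKM in NC libraries (-0.65 ± 0.04). Neu1, the lysosomal sialidase, had 20.7, 19.7 and 21.1 FPKM in P libraries and 13.1, 14.0 and 13.7 FPKM in NC libraries (0.56 ± 0.05).

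Several genes of matrix turnover were higher. Fibroblast markers summed to 2600 to 2750 FPKM in P libraries and 2390 to 2480 FPKM in NC libraries, most of it Col1a1. Of the 6 tested, 3 were called higher (Postn, Thy1 and Col1a1) and 0 lower, and Pdgfra and Dcn were near 0. Apart from Thy1 and Pdgfra, these markers are also members of the collagen or matrix lists below, so they are not a separate observation. Their part in the matrix results was not tested. Of 20 tested matrix proteases and inhibitors, 9 were called higher and 0 lower, with a median of 0.14, and 29 further members of this list were too low to be tested. Timp1, an inhibitor of matrix metalloproteinases, had 203, 190 and 183 FPKM in P libraries and 108, 112 and 110 FPKM in NC libraries (0.80 ± 0.04, limma adjusted p = 0.000302). Plaur, the urokinase receptor, had 383, 372 and 358 FPKM in P libraries and 230, 237 and 239 FPKM in NC libraries (0.66 ± 0.04). In both genes the lowest P library was well above the highest NC library. Mmp14, a membrane metalloproteinase, rose less, by 0.18 ± 0.03.

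Among matrix components the 2 largest changes belonged to Postn and Tnc, matricellular proteins of remodelling tissue. Postn had 25.2, 26.8 and 25.4 FPKM in P libraries and 14.7, 15.2 and 14.6 FPKM in NC libraries (0.76 ± 0.04, adjusted p = 0.000302), and Tnc 8.97, 8.52 and 9.34 FPKM in P libraries and 5.27, 5.21 and 5.44 FPKM in NC libraries (0.66 ± 0.05). The 24 tested matrix genes outside the collagens had 5 higher and 4 lower, with a median of -0.01, and scaling to total reads gave 10 higher and 0 lower. Of 23 collagen genes, 7 were called higher and 2 lower (median 0.10), from Col5a3 at 0.59 ± 0.06 to Col12a1 at -0.31 ± 0.03. Col1a1, the main collagen of the line, had 1691, 1636 and 1610 FPKM in P libraries and 1427, 1434 and 1485 FPKM in NC libraries (0.18 ± 0.04, adjusted p = 0.0148). Its call was lost without NC replicate 1 (adjusted p = 0.0535) or NC replicate 2 (adjusted p = 0.0531). Of 15 genes for collagen processing 6 were called higher and 0 lower, with Bmp1, the procollagen C-proteinase, at 0.38 ± 0.05, Crtap at 0.37 ± 0.07 and Ppib, which forms a complex with it, at 0.34 ± 0.04. Among the largest gains in level were the tetraspanin Cd63 and the secreted protease Htra1. Cd63 had 1886, 1754 and 1830 FPKM in P libraries and 1512, 1499 and 1456 FPKM in NC libraries. Htra1 had 1244, 1195 and 1182 FPKM in P libraries and 1024, 1003 and 1020 FPKM in NC libraries. They changed by 0.29 ± 0.04 and 0.25 ± 0.04, beside 0.42 ± 0.05 for the membrane protein gene Emp3.

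Mitotic genes were called in 1 direction, by small amounts. Of 30 tested genes of the G2 and M phases, 15 were called higher and 0 lower, and the median was 0.21, with all members between 0.00 and 0.37. Kif20a, a kinesin of cytokinesis, had 27.3, 25.6 and 26.2 FPKM in P libraries and 20.8, 20.8 and 21.2 FPKM in NC libraries (0.32 ± 0.04). Cdk1, the mitotic kinase, had 48.0, 48.7 and 50.5 FPKM in P libraries and 40.3, 40.9 and 40.8 FPKM in NC libraries (0.27 ± 0.03). Aurkb and Cdc20, which act at chromosome segregation, rose by 0.33 ± 0.05 each. Genes of the G1 to S transition and of replication had 6 higher and 3 lower of 36, with a median of 0.03, a called share of 25.0% beside 26.1% of all genes. Ccnd2, a D-type cyclin, fell by 0.61 on the log2 scale, to 18.6, 17.8 and 17.9 FPKM in P libraries against 25.1, 29.5 and 30.1 FPKM in NC libraries, and the inhibitor Cdkn1b by 0.33.

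Among 19 tested p53 targets 2 were called higher and 8 lower (median -0.13). The lower ones include Sesn2 and Trib3, which are also counted as ATF4 targets, and the list shares Btg2 with the immediate early genes. Gadd45a, a growth arrest gene, had 51.6, 54.7 and 54.8 FPKM in P libraries and 87.2, 84.0 and 85.5 FPKM in NC libraries (-0.66 ± 0.04, adjusted p = 0.000302). Fas, the death receptor, had 8.52, 8.22 and 8.62 FPKM in P libraries and 5.89, 5.55 and 5.50 FPKM in NC libraries (0.51 ± 0.05). Of 21 genes of the BCL2 family and the caspases 2 were called higher and 3 lower, a share of 23.8% beside 26.1% of all genes. Bax, which opens the outer mitochondrial membrane, had 46.6, 47.4 and 48.5 FPKM in P libraries and 47.7, 51.3 and 57.4 FPKM in NC libraries (-0.13 ± 0.07, adjusted p = 0.196). Bcl2, which restrains it, had 2.38, 2.74 and 2.45 FPKM in P libraries and 2.88, 2.81 and 2.99 FPKM in NC libraries (-0.15 ± 0.07, adjusted p = 0.176). Bmf, a BH3-only gene, changed by -0.34 ± 0.07.

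Cytokine genes moved in both directions. Of 18 tested genes of the NF-kB and cytokine list, 10 were called higher and 5 lower, with a median of 0.23. Icam1, the leukocyte adhesion molecule, had 106, 104 and 105 FPKM in P libraries and 77.6, 77.9 and 81.2 FPKM in NC libraries (0.41 ± 0.03), and the subunits Nfkb1 and Nfkb2 rose by 0.28 ± 0.04 and 0.33 ± 0.05. Cxcl1, a neutrophil chemokine, had 44.1, 41.9 and 44.2 FPKM in P libraries and 63.0, 60.6 and 59.8 FPKM in NC libraries (-0.49 ± 0.04), and the cytokine Lif changed by -0.48 ± 0.08. The calls of Icam1 (adjusted p = 0.0677) and Cxcl1 (adjusted p = 0.62) were lost with all 18 libraries in the fit. Of 15 interferon targets 7 were called higher and 1 lower (median 0.20), among them Stat2 (0.40 ± 0.06), the peptide transporter Tap1 (0.35 ± 0.05) and B2m, the light chain of class I molecules (0.18 ± 0.03).

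**Figure D4:**
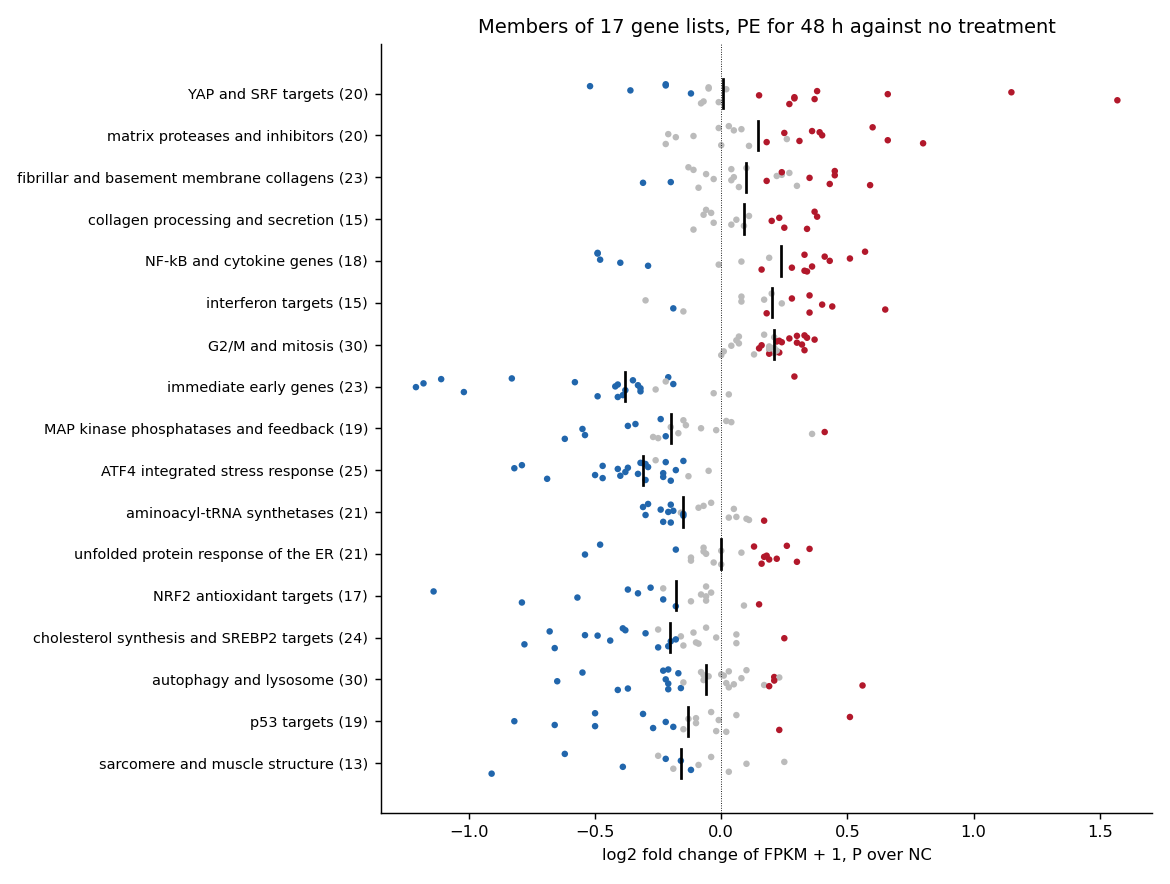
Log2 fold change of FPKM + 1 (P over NC) of the tested members of 17 lists, the number tested in brackets, with red for called higher, blue for called lower, grey for not called and a black bar at each median. Immediate early genes (median -0.38) and ATF4 targets (median -0.31) lie mostly to the left, G2 and M genes (median 0.21) to the right, and YAP and SRF targets on both sides.

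The genes commonly read as markers of heart muscle growth had 2 members called higher and 3 lower of 13, with a median of -0.08. The higher ones were Ctgf (1.15) and Nppb, and the lower ones Acta1 (-0.91), Mef2a (-0.41, limma adjusted p = 0.00236) and Rcan1. Ctgf is also counted in the YAP and SRF list, Acta1 in the sarcomere list and Mef2a among the myogenic regulators. Ankrd1 changed by -0.01 and was not called. Nppb, the B-type natriuretic peptide, had 3.58, 3.67 and 3.52 FPKM in P libraries and 2.82, 1.74 and 2.14 FPKM in NC libraries (0.52 ± 0.12, adjusted p = 0.0227). The call was lost in 4 of the 6 fits that left out 1 library, with adjusted p between 0.0535 and 0.0679. Nppa, the atrial peptide, had 1 to 3 reads in each P and NC library and was not tested. Rcan1, a target of calcineurin, had 18.5, 18.9 and 18.3 FPKM in P libraries and 21.4, 20.1 and 21.4 FPKM in NC libraries (-0.17 ± 0.04, adjusted p = 0.0243). Rcan1 was called in 1 of the 6 fits that left out 1 library.

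Receptors for adrenaline were at the limit of what these libraries read. Adra1a, Adra1d and Adrb1 had 0 reads in all 6 libraries, where 3 reads per library would correspond to at most 0.0648, 0.0449 and 0.0944 FPKM. Adra1b had 0.658, 0.524 and 0.370 FPKM in P libraries and 1.18, 0.801 and 0.806 FPKM in NC libraries, from 23 to 67 reads, and fell below the level needed for a test. Of 19 tested genes of G protein signalling, 4 were called higher and 3 lower, a share of 36.8% beside 26.1% of all genes. Rgs2, which shuts off Gq proteins, had 24.2, 26.3 and 27.8 FPKM in P libraries and 12.4, 15.7 and 14.2 FPKM in NC libraries (0.84 ± 0.09, adjusted p = 0.00188). Plcb3, the phospholipase that Gq proteins activate, had 46.3, 46.4 and 43.3 FPKM in P libraries and 28.3, 30.4 and 29.5 FPKM in NC libraries (0.61 ± 0.04). Gnaq, the Gq alpha subunit, changed by -0.45 ± 0.07, and Arrb2, an arrestin that desensitises receptors, by 0.52 ± 0.10. Nuak2, a kinase of the AMPK family, had 8.21, 7.63 and 6.85 FPKM in P libraries and 3.54, 3.75 and 3.90 FPKM in NC libraries (0.85 ± 0.07).

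Adm, the vasodilator peptide adrenomedullin and a gene induced by hypoxia, had 5.44, 5.25 and 4.63 FPKM in P libraries, against 12.3, 11.7 and 12.3 FPKM in NC libraries (-1.10 ± 0.06, adjusted p = 0.000318). Vegfa, another hypoxia target, went the other way, at 69.3, 76.7 and 73.5 FPKM in P libraries and 62.7, 63.2 and 61.6 FPKM in NC libraries (0.22 ± 0.04). Of 13 tested hypoxia targets 1 was called higher and 6 lower, with a median of -0.11. The lower ones include Ddit4, which is also counted as an ATF4 target. The gene of smooth muscle myosin light chain kinase, Mylk, was low, with 0.727, 0.651 and 0.685 FPKM in P libraries and 1.48, 1.25 and 1.47 FPKM in NC libraries. It passed the filter at 1 FPKM through the NC libraries alone, so its difference is given without a test.

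The largest increases among genes with a name were uneven between libraries. Uchl3, a ubiquitin hydrolase, had 1.84, 3.09 and 12.2 FPKM in P libraries and 0, 0.489 and 0.296 FPKM in NC libraries, so that it passed the filter through the P libraries alone and its difference is given without a test. Ebna1bp2, a ribosome assembly factor, had 13.3, 16.2 and 4.60 FPKM in P libraries and 0.475, 0.174 and 4.58 FPKM in NC libraries (2.38 ± 0.65, adjusted p = 0.0378). Hnrnpc, an RNA-binding protein, had 4.73, 4.63 and 5.14 FPKM in P libraries and 7.91, 16.5 and 22.5 FPKM in NC libraries (-1.40 ± 0.32). Each of these spreads over more than 2-fold within a group, and Slc29a2, a nucleoside transporter, was also uneven (0.87 ± 0.23, adjusted p = 0.0346). Of the 6 fits that left out 1 library, Ebna1bp2 was called in 2, Hnrnpc in 3 and Slc29a2 in 2. Another 4 of the 12 largest increases were loci of microRNA precursors, Mir145, Mir3120, Mir7a-1 and Mir23b (1.07 to 1.45), each resting on 31 to 305 reads over the 6 libraries. Poly(A) libraries do not read mature microRNAs, so these values are reads over the loci.

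The PE comparison made in cells given 10 pulses, P_ES10 against ES10, shares no library with P against NC, although both were fitted in 1 model of 12 libraries whose common spread P and NC also set. There 1333 of 11549 genes were called (11.5%), 562 higher (4.87%) and 771 lower (6.68%). Of the 1494 genes higher in P than in NC, 297 were also called higher in P_ES10 than in ES10 (19.9%) and 11 were called lower. Of the 1380 lower genes, 451 were also called lower (32.7%) and 26 higher. The median change of the higher genes was 0.09 in P_ES10 against ES10 and 0.30 in P against NC, and that of the lower genes was -0.13 and -0.29. The count of 1333 was 941 with the P_ES10 and ES10 libraries fitted alone, 713 and 805 without P_ES10 replicates 2 and 1, and 875 and 770 without ES10 replicates 1 and 2.

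Cyr61 had 72.9, 70.4 and 69.6 FPKM in P_ES10 libraries, against 36.2, 37.9 and 33.3 FPKM in ES10 libraries (0.97, limma adjusted p = 1.11e-06). Ctgf had 64.8, 64.6 and 66.3 FPKM in P_ES10 libraries and 39.4, 46.0 and 41.1 FPKM in ES10 libraries (0.62). Timp1 (0.59), Amotl2 (0.58) and Fas (0.52) were higher too. Postn had 30.7, 33.0 and 31.6 FPKM in P_ES10 libraries and 14.6, 14.8 and 14.8 FPKM in ES10 libraries (1.06, adjusted p = 1.31e-07). In all 6 of these genes PE gave the higher level with and without pulses. On the lower side were the 13 mitochondrially encoded mRNAs (median -0.61), 16 of the 25 ATF4 targets and 11 of the 21 tRNA synthetases. The last of these lists shares Aars, Gars, Nars, Sars and Wars with the ATF4 list. Trib3 had 17.1, 16.9 and 16.9 FPKM in P_ES10 libraries and 25.9, 25.2 and 25.3 FPKM in ES10 libraries (-0.56), and Slc7a11 (-0.61) and Psat1 (-0.43) fell as well. Other lists differed more between the comparisons. Here G2 and M genes had 2 higher and 0 lower calls (median 0.03). Collagens had 1 higher and 4 lower, and collagen processing 1 in each direction (median -0.04). Interferon targets had 3 higher and 1 lower (median 0.01), and sarcomere genes 1 higher and 2 lower (median 0.02). Matrix proteases and inhibitors had 6 higher and 0 lower (median 0.11). The mitochondrial share of reads was 6.46 ± 0.377% in P_ES10 and 9.44 ± 0.319% in ES10 (SD, n = 3 each, exact two-sided permutation p = 0.1).

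Whether the PE difference itself differed was tested as the change in P_ES10 over ES10 minus that in P over NC. This interaction was called for 704 of 11549 genes (6.1%), 331 positive (2.87%) and 373 negative (3.23%), and it uses the P and NC libraries again, so that for genes picked by P against NC an opposite sign is favoured. It was positive and called in 12 of the 13 mitochondrially encoded mRNAs (median 0.73). The changes of these mRNAs were in the same direction in both comparisons but smaller after pulses. The interaction was also positive and called in 6 of the 25 ATF4 targets. Among these were Chac1 (0.63), Sesn2 (0.42), Ddit3 (0.39) and Atf4 (0.33), where it nearly offset the fall in P over NC. For Cyr61 and Ctgf it was -0.61 and -0.52, and for Postn 0.30. Among immediate early genes it was positive and called in 16 of 23. Fos had 48.2, 42.8 and 46.5 FPKM in P_ES10 libraries and 32.1, 35.2 and 27.5 FPKM in ES10 libraries. It was thus higher with PE after pulses (0.53, adjusted p = 0.0132) and lower with PE without them, an interaction of 1.64 ± 0.16 (adjusted p = 0.000382). Hmox1 had 1025, 1009 and 1070 FPKM in P_ES10 libraries and 1041, 1185 and 1229 FPKM in ES10 libraries, where its change of -0.15 was not called (interaction 0.99 ± 0.08, adjusted p = 0.00014). Idi1 had 20.5, 18.1 and 20.5 FPKM in P_ES10 libraries and 17.1, 15.1 and 16.0 FPKM in ES10 libraries (0.28, interaction 1.05 ± 0.08). Of the cholesterol genes 8 of 24 had a positive interaction and 1 a negative one.

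**Figure D5:**
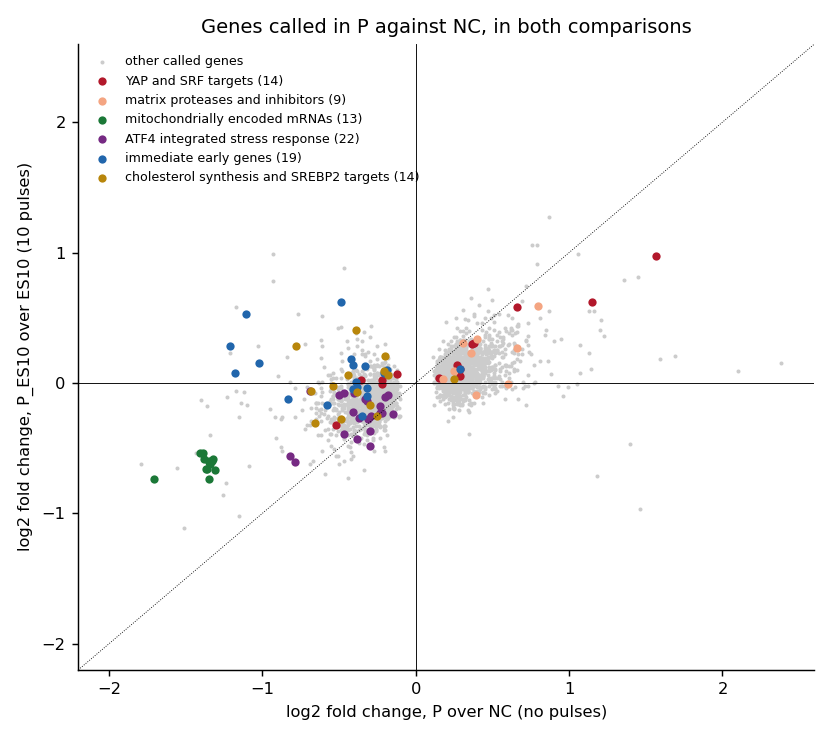
Log2 fold change of FPKM + 1 in P_ES10 over ES10 (vertical axis) against that in P over NC (horizontal axis) for the 2874 genes called in P over NC, with 6 lists in colour and the number of their called members in brackets. The dotted line marks equal change. The 13 mitochondrially encoded mRNAs and most ATF4 targets lie below zero on both axes, while several immediate early genes lie below zero on the horizontal axis and above it on the vertical one.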

How the data were processed

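The authors deposited 1 table of FPKM values for 18 libraries of poly(A)-selected RNA on build Rnor 6.0, per the labels' protocols and the submitters' processing notes. The aligner, counter, annotation and strand setting are not given in the sources used, so reads of near-identical or overlapping genes may be split or shared. Multiplied by gene length, the values came out as whole reads for 100% of genes (tolerance 0.01), from which reads per library were counted. Limma 3.58.1 in R 4.3.3 was fitted to log2(FPKM + 1) with an intensity trend, for genes at 1 FPKM or more in at least 3 fitted libraries. P and NC were fitted alone, and the second comparison and the interaction in 1 model of 12 libraries. P-values were adjusted by Benjamini-Hochberg over all genes tested, with a threshold of 0.05. How small a change this design can detect was not tested on these libraries.

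Named genes are the 12 largest called changes each way without overlap between groups, the largest changes limited to genes with a proper symbol, the 6 largest each way in FPKM, up to 6 per list the 5 largest interactions each way and a fixed set of heart and mitochondrial genes. The members and lists were chosen with earlier results of these data known. Libraries with the same number did not deviate together (correlations of -0.13, -0.04 and 0.01). Promoters came from RefSeq (GRCr8), matched by symbol or gene identifier to 8138 of the 11019 genes tested. Not every gene that the rule picks is named, and a few are not reported here.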

Additional observations from a re-analysis of the deposited data

Results flagged for a closer look

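The PE difference in cells given 10 pulses differed from that in cells given none, by the interaction term of limma, for 331 genes in the positive and 373 genes in the negative direction. Values are log2 interactions, P_ES10 over ES10 minus P over NC.

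Among immediate early genes, phosphatases and their partners the values were 1.64 for Fos, 1.48 for Fosb, 1.26 for Klf4, 1.18 for Egr1, 0.71 for Maff, 0.59 for Myc, 0.40 for Fosl1, 0.40 for Fosl2, 0.62 for Dusp5, 0.39 for Dusp1 and 0.24 for Dusp10. The heat shock gene Hspa1b, one of the largest, had 1.12. Of the mitochondrially encoded mRNAs, Mt-atp8 had 0.97, Mt-nd6 0.87, Mt-co1 0.72, Mt-cytb 0.71 and Mt-nd5 0.64.

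Sterol genes followed with 1.05 for Idi1, 0.80 for Hmgcs1, 0.62 for Insig1, 0.53 for Cyp51, 0.50 for Sqle, 0.35 for Acat2 and 0.27 for Npc1. For stress genes the term was 0.99 for Hmox1, 0.93 for Adm, 0.63 for Chac1, 0.58 for Gadd45a, 0.50 for Dnajb9, 0.42 for Sesn2, 0.42 for Gabarapl1, 0.39 for Ddit3, 0.33 for Atf4, 0.33 for Srxn1, 0.31 for Herpud1 and 0.30 for Txnrd1. Muscle genes gave 0.74 for Id2, 0.49 for Acta1, 0.46 for Cnn1, 0.38 for Myl9 and 0.35 for Myod1. Cytokine and matrix genes with positive terms were Cxcl1 (0.91), Lif (0.65), Postn (0.30), Icam1 (0.19) and Col12a1 (0.17).

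Negative terms, where the PE difference was lower after pulses, were -0.61 for Cyr61, -0.52 for Ctgf, -0.63 for Col5a3, -0.24 for Col1a1, -0.32 for Bmp1, -0.38 for Plaur and -0.38 for Emp3. Signalling and other genes had -0.60 for Arrb2, -0.57 for Plcb3, -0.55 for Neu1, -0.47 for Rgs2, -0.45 for Nuak2, -0.40 for Stat2, -0.31 for Cdc20, -0.31 for Kif20a, -0.24 for Cdk1 and -0.18 for Pdia6. The most negative of the interaction genes with a name were Hoxb5 (-0.80), Fam132a (-0.78), Fhod1 (-0.74), Cabp4 (-0.74) and Apbb3 (-0.73).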

How the results depend on the processing

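With all 18 libraries in 1 model the calls were 1136 for P against NC, 215 for P_ES10 against ES10 and 108 for the interaction. The main fits gave 2874, 1333 and 704. The calls of 21 of the 106 genes tested for this were lost. The model of 18 also took its spread from the libraries given 50 pulses without PE, where 91.4 to 92.9% of reads were mitochondrial. Leaving out 1 library gave 1821 to 2145, 713 to 1317 and 448 to 642 calls, and a mitochondrial share difference of -8.1 to -6.92 percentage points. Without P_ES10 replicate 1 or 3 the interaction had 448 or 465 calls. In P against NC 1422 of the 2874 genes (49.5%) were called in all 6 such fits.

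The numbers do not pair the libraries. With a replicate block the counts were 1984, 1142 and 596, and Bmf, Rcan1, Ebna1bp2 and Slc29a2 were no longer called. Scaling to total reads gave 72.7% higher calls in P_ES10 against ES10 and 25.8% positive interactions, against 42.2% and 47.0%, and turned Tfam to 0.04. The other alternatives kept the count for P against NC within 1.5 times, from 1965 with no filter on low values to 3466 with voom weights on recovered reads, an alternative chosen after seeing the data. The planned edgeR and DESeq2 fits were not run, and voom stood in for them. Counts behind low genes limit what could be read.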

Other observations

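By the family column of the authors' annotation, a grouping chosen after the values were seen, genes with calcium-binding EGF domains had 8 called higher and 1 lower of 16. Ras family GTPases had 3 higher and 17 lower of 86, Arf family GTPases 1 higher and 9 lower of 26, helix-loop-helix factors 2 higher and 10 lower of 36, and bZIP factors 2 higher and 9 lower of 16. Over all genes 13.6% were higher and 12.5% lower. The bZIP and helix-loop-helix families include factors already described, such as Fos and Id2.

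Cytosolic ribosomal protein genes took 2.87 ± 0.139% of nuclear reads in P and 3.07 ± 0.0659% in NC (SD, n = 3 each, exact two-sided permutation p = 0.1). In 5 equal classes of gene length, the median change was -0.03, 0.02, 0.03, 0.01 and -0.01 from the shortest to the longest class.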
